A study of Mus musculus with 8 samples.

Results

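The keratin genes of the outer medullary collecting duct were described, chosen by symbol as 10 of the 55291 genes measured: Krt5, Krt7, Krt8, Krt10, Krt14, Krt15, Krt18, Krt19, Krt20 and Krt80. All 10 were found in both deposited tables. RNA was sequenced from ducts dissected from the enzyme-digested kidneys of C57BL/6J mice, an inbred strain. For 3 days 4 mice had a diet with 0.3% salt (normal salt) and 4 others one with 3% salt (high salt). Every mouse gave 1 library, made from 100 to 120 pooled tubules, so that a value is an average over the cell types of the duct. The ages of the mice were not given in the sources used here.

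Keratins are the intermediate filament proteins of epithelial cells. A filament forms only when an acidic type I keratin pairs with a basic type II keratin, and desmosomes and hemidesmosomes anchor the filaments to neighbouring cells and to the basement membrane. Simple epithelia such as the kidney tubule are known for the pair Krt8 (type II) and Krt18 (type I), to which ducts add Krt7 (type II) and Krt19 (type I). Basal cells of layered epithelia carry Krt5 with Krt14, and Krt15 is another keratin of that basal layer. Krt10 is the type I keratin of the upper layers of epidermis, Krt80 is a type II keratin of several epithelia, and Krt20 (type I) is known from surface cells of the urothelium and from injured tubules.

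The stretches before the annotated starts of Krt7, Krt8 and Krt18 are shown because these 3 genes carried most of the keratin RNA. They were taken from RefSeq (GRCm38.p6), where 7 of the 10 genes had an entry, and were shortened to leave out untranslated and coding sequence annotated in GENCODE M21. Each is printed 5′ to 3′ on the strand of its gene, and capitals mark the GC box GGGCGG on either strand. The Krt7 window lies at chr15:101412153-101412401 (plus strand), the Krt8 window at chr15:102004483-102004592 (minus strand) and the Krt18 window at chr15:102027966-102028179 (plus strand).
Krt7: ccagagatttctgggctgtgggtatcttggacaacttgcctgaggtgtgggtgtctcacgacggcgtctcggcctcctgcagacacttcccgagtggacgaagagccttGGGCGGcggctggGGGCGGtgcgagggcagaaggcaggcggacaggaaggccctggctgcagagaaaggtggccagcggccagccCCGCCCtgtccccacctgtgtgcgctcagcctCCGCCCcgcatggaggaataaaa
Krt8: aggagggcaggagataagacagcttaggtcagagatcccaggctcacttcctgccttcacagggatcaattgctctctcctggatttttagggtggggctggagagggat
Krt18: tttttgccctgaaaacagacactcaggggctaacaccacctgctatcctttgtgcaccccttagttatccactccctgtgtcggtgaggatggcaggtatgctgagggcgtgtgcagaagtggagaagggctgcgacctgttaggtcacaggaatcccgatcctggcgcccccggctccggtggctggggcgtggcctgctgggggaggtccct
In the full 250 bases before the RefSeq start, Krt7 held 4 GC boxes, with no 2 overlapping, and Krt8 and Krt18 held 0. Of these full windows, 140 bases for Krt8, 36 for Krt18 and 1 for Krt7 lie in untranslated or coding sequence annotated in GENCODE M21. A GC box was present in 32.7% of the 32851 RefSeq promoter windows of that length. None of the 3 genes held TATAAA (12.4% of windows), CCAAT (33.8%) or TGANTCA, the AP-1 motif (6.75%), each searched on both strands. The windows had 16, 3 and 12 CG pairs for Krt7, Krt8 and Krt18, against a median of 6 over all windows. The Krt7 window also overlaps exons of a noncoding Krt7 transcript and of the antisense gene Gm671. These matches describe letters and not bound factors.

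The libraries held 64.8 to 94.1 M estimated counts, where 1 count is worth 0.0106 to 0.0154 CPM. Normal-salt library 1 stood apart from the others before any comparison. It was the shallowest, and its summed markers of fibroblasts and pericytes were 300 CPM, against 31.1 to 54.0 in the other normal-salt and 50.6 to 142 in the high-salt libraries (10 markers, 6 above the level for testing and none at 0 throughout). It also had the lowest levels of Macf1 (217 CPM), Dst (259 CPM) and Dsp (448 CPM), which encode very large cytoskeletal linker proteins.

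The dissected ducts expressed few of the keratin genes. Levels are given in CPM, reads scaled to a common library total, and in TPM, which also takes transcript length into account and is used to compare genes. Of 55 keratin symbols in the tables, 8 reached the level set for testing, which was 1 CPM or more in 4 or more libraries. The other 47 had means of at most 0.0685 CPM, and 13 of them were at 0 in all 8 libraries. The 8 included 6 of the 10 keratins described here, namely Krt7, Krt8, Krt18, Krt80, Krt19 and Krt10. The other 2 were Krt23 and the pseudogene Krt8-ps.

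In mouse the type II genes lie in a cluster on chromosome 15 that also holds Krt18, and the other type I genes lie in a cluster on chromosome 11. Of 27 keratin symbols on chromosome 15, the 4 that passed stood in pairs at the outer ends of the cluster in GENCODE M21 on mm10. Krt80 (101347444 to 101370162, minus strand) and Krt7 (101411043 to 101430313, plus strand) lie 40.9 kb apart at one end. Krt8 (101996698 to 102004482, minus strand) and Krt18 (102028180 to 102032027, plus strand) lie 23.7 kb apart at the other. All 23 keratin symbols between Krt7 and Krt8, Krt5 among them, had means of at most 0.0640 CPM. Of 27 symbols on chromosome 11, those that passed were 3: Krt10 (99385254 to 99389364), Krt23 (99477974 to 99493137) and Krt19 (100140810 to 100148665), all on the minus strand. Krt15, at 0 in every library, is the neighbour of Krt19, with 4.88 kb between the gene bodies.

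**Figure D1:**
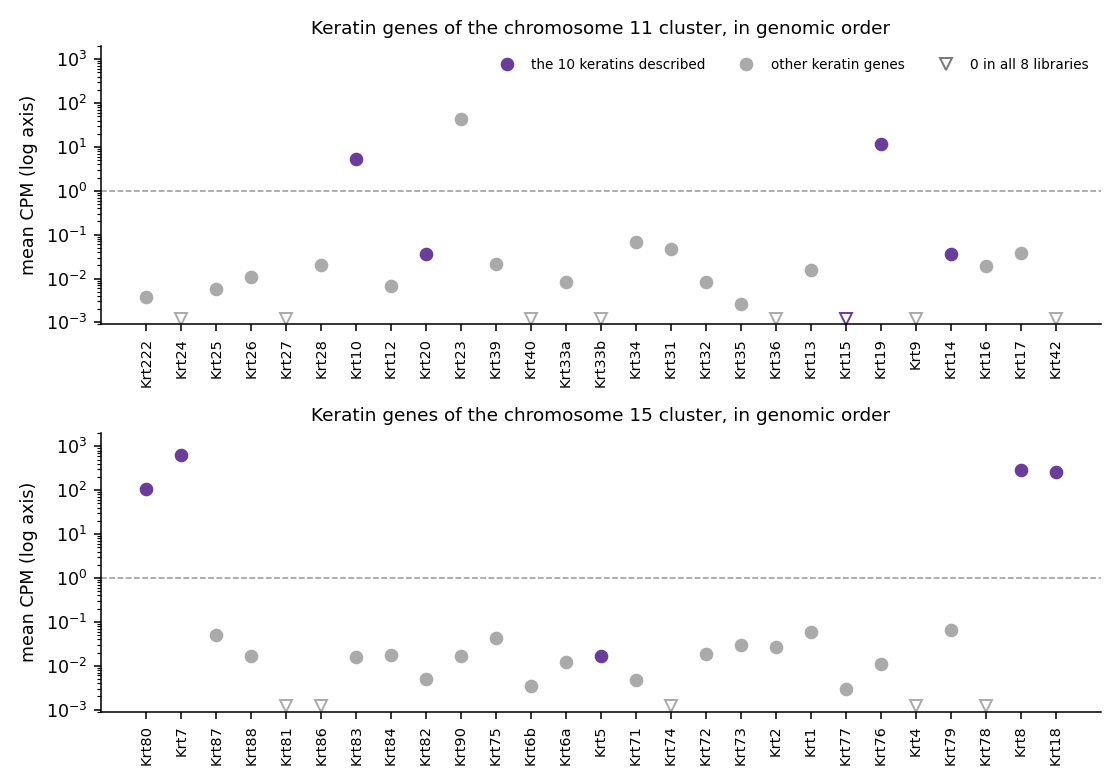
Mean CPM over the 8 libraries (log axis) of the keratin genes on chromosomes 11 and 15, drawn in genomic order. Purple points are the 10 keratins described, grey points other keratin genes, open triangles genes at 0 in all 8 libraries, and the dashed line 1 CPM. The 4 genes above the line on chromosome 15 sit at the ends of the cluster, with 23 genes below 0.1 CPM between them.

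By TPM over all 8 libraries the order was Krt7 (mean 420), Krt18 (308), Krt8 (244), Krt80 (53.7), Krt19 (13.3) and Krt10 (13.0). Krt7 was above Krt18, Krt18 above Krt8, and Krt8 above Krt80 in 8 of 8 libraries each, and Krt80 was above Krt19 in 8 of 8. Krt19 and Krt10 did not keep an order: Krt19 was the higher in 0 of 4 normal-salt and 3 of 4 high-salt libraries. Krt7, Krt8 and Krt18 together made up 90.6% to 94.2% of the TPM of the 10 genes, and Krt7 alone 33.2% to 46.6%. The summed TPM of the 10 genes came to 1117 ± 91.1 with normal and 986 ± 34.8 with high salt (SD, n = 4 each). Type II members outweighed type I members in every library, by 1.86 to 2.47 times in TPM. With Krt23, which is type I, counted in, the ratio was 1.63 to 2.13.

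The study compared the 2 diets. None of the 6 keratins tested passed by limma, a linear model fitted to all 13401 genes on log2(CPM + 1), at an adjusted p under 0.05. The same test called 11 genes, 0.0821% of all tested, of which 4 had higher (0.0298%) and 7 lower (0.0522%) high-salt means. At an unadjusted p under 0.05, 2 of the 6 passed, against 10.3% of all genes. These were Krt19 with a higher mean under high salt (5.95% of all genes) and Krt7 with a lower one (4.37%). Limma with voom weights on estimated counts also called 0 of the 6. Means on the log2 scale were higher under high salt in 2 of the 6 and lower in 4, where 52.8% of all genes were higher and 47.2% lower. Their median log2 fold change was -0.12, against 0.01 for all genes. The diets did not overlap in CPM for 1 of the 6, Krt7, against 6.4% of all genes (3.66% higher and 2.75% lower under high salt). In pools of tubules, fewer cells of a type and less RNA per cell cannot be told apart.

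**Figure D2:**
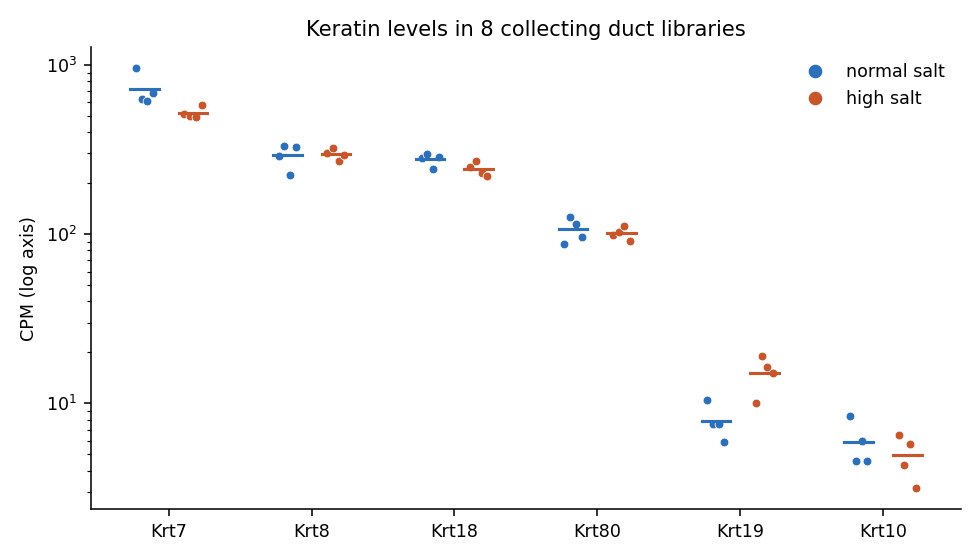
CPM (log axis) of the 6 keratins that reached the level for testing, 1 point per library and 4 libraries per diet, with bars at the mean of each diet. Krt7 is lower in all 4 high-salt libraries than in any normal-salt library, and Krt19 is higher in 3 of them, while the points of Krt8, Krt18, Krt80 and Krt10 overlap between the diets.

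Krt8 and Krt18, the filament pair of simple epithelia, were close to each other in level. Krt8 was at 290, 330, 223 and 326 CPM in normal-salt libraries 1, 2, 3 and 6 and at 301, 323, 271 and 294 CPM in high-salt libraries 2, 3, 4 and 6. The lowest and the highest of these values were both from the normal-salt diet, whose range enclosed the high-salt range. Means were 293 ± 49.6 and 297 ± 21.2 CPM (SD, n = 4 each). Krt8 had a log2 fold change of 0.04 (SE 0.13, 95% interval -0.24 to 0.32, limma adjusted p = 0.947). Its mean change turned negative without normal-salt library 3 (-0.09) or without high-salt library 3 (-0.00247).

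Krt18 was at 281, 297, 244 and 286 CPM under normal salt and at 250, 271, 229 and 221 CPM under high salt, in the same library order. Normal-salt library 3 lay among the high-salt values, so the diets overlapped. Means were 277 ± 23.1 and 243 ± 22.1 CPM, with a log2 fold change of -0.19 (SE 0.10, 95% interval -0.40 to 0.03, limma adjusted p = 0.549). Over the 8 libraries Krt8 and Krt18 had a Pearson correlation of 0.56 on log2(CPM + 1), given as a description of libraries that differ in diet and depth.

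Because the partners are compared within a library, their ratio does not depend on the scaling between libraries. In TPM, Krt8 over Krt18 was 0.725, 0.775, 0.637 and 0.794 under normal salt and 0.840, 0.831, 0.826 and 0.926 under high salt. The ratio was therefore higher in all 4 high-salt libraries than in any normal-salt library, with means of 0.733 ± 0.0698 and 0.856 ± 0.0474. In CPM it was 0.916 to 1.14 and 1.18 to 1.33, also without overlap. This ratio was singled out after its values were seen and was not tested.

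Krt7, the most abundant keratin of these ducts, was at 952, 631, 612 and 681 CPM under normal salt and at 511, 500, 490 and 579 CPM under high salt. All 4 high-salt libraries lay below all 4 normal-salt libraries, as in 2.75% of tested genes. Means were 719 ± 158 and 520 ± 40.2 CPM (SD, n = 4 each). Krt7 had a log2 fold change of -0.45 (SE 0.14, 95% interval -0.76 to -0.14), which missed the threshold after adjustment over all genes (limma adjusted p = 0.272).

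Normal-salt library 1 stood above the rest in Krt7, and without it the log2 fold change was -0.30 (limma adjusted p = 0.157). In TPM the same gene was at 512, 428, 438 and 504 under normal salt and at 353, 333, 359 and 435 under high salt, where high-salt library 6 lay above normal-salt library 2. The log2(TPM + 1) fold change was -0.35 (limma adjusted p = 0.303). Normal-salt library 1 is the one with the most fibroblast markers and the least Macf1. The part of these in the Krt7 values was not tested.

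Krt19, the type I keratin of ducts, was at 10.5, 7.58, 7.55 and 5.95 CPM under normal salt and at 10.1, 19.0, 16.5 and 15.1 CPM under high salt. Normal-salt library 1 lay just above high-salt library 2, and the other 3 high-salt libraries lay above every normal-salt library. Means were 7.89 ± 1.88 and 15.2 ± 3.76 CPM (SD, n = 4 each), a ratio of 1.92. The log2 fold change was 0.85 (SE 0.21, 95% interval 0.40 to 1.31), and it missed the threshold after adjustment over all genes (limma adjusted p = 0.159). These levels rest on 469 to 1426 estimated counts per library.

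In TPM, Krt19 was at 11.996, 8.23, 8.05 and 6.55 under normal salt and at 13.5, 19.975, 17.1 and 20.9 under high salt. On this scale the diets did not overlap, with all high-salt libraries higher. Of the 13623 genes with 1 TPM or more in 4 or more libraries, 5.92% did not overlap, 3.8% higher and 2.11% lower under high salt, and Krt19 was the only keratin of the 10 among them. The log2(TPM + 1) fold change was 0.97 (limma adjusted p = 0.127). The adjusted p of Krt19 lay between 0.0732 and 0.451 over 17 alternatives, and its fold change was positive in all 17. Beside Krt18, the most abundant type I keratin of the 10, Krt19 came to 1.84% to 4.04% of Krt18 TPM under normal salt and 4.48% to 7.98% under high salt.

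**Figure D3:**
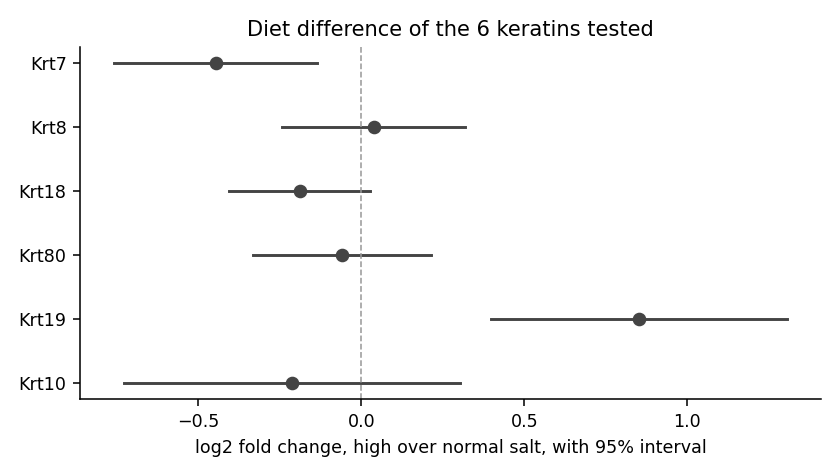
Log2 fold change of high over normal salt on log2(CPM + 1) for the 6 keratins tested (points) with 95% intervals from limma (lines), and a dashed line at no difference. The unadjusted intervals of Krt7 (-0.76 to -0.14) and Krt19 (0.40 to 1.31) leave out 0 on opposite sides, although neither gene passed after adjustment over all genes.

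Krt80, the type II keratin next to Krt7 in the genome, was at 87.5, 127, 115 and 96.2 CPM under normal salt and at 99.2, 104, 112 and 90.9 CPM under high salt. The high-salt values all lay inside the normal-salt range. Means were 106 ± 17.9 and 101 ± 8.69 CPM, and the log2 fold change was -0.06 (SE 0.12, 95% interval -0.33 to 0.21, limma adjusted p = 0.91). Its sign turned without normal-salt library 2 (0.03). The antisense gene Gm35853 spans the whole of Krt80 but was at 0.359 to 1.497 CPM.

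Krt10, the keratin of upper epidermal layers, was at 8.42, 4.54, 5.98 and 4.55 CPM under normal salt and at 6.51, 4.33, 5.78 and 3.15 CPM under high salt. The diets overlapped, with the highest value in normal-salt library 1. Means were 5.87 ± 1.83 and 4.94 ± 1.499 CPM, and the log2 fold change was -0.21 (SE 0.23, 95% interval -0.73 to 0.30, limma adjusted p = 0.806). It was -0.0487 without normal-salt library 1, -0.0520 without high-salt library 6 and -0.34 without high-salt library 2. Its spread was the widest of the 6 in CPM, with coefficients of variation of 31.1% and 30.3%, against 8.33% and 9.10% for Krt18.

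The keratins of basal cells were at or near 0. Krt5 was at 0.0771, 0.0234, 0.0319 and 0 CPM under normal salt, which are 5, 2, 3 and 0 estimated counts, and at 0 in all 4 high-salt libraries. Krt14 was at 0.0617 CPM in normal-salt library 1 and at 0 in the other 3, and at 0, 0.0133, 0.208 and 0 CPM under high salt. Its highest value, in high-salt library 4, came from 15.35 estimated counts. Krt15 was at 0 in all 8 libraries, which allows at most 0.0319 to 0.0463 CPM by library (3 counts of its total, counting error only).

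Krt20, known from urothelial surface cells and injured tubules, was at 0.0926 and 0.202 CPM in normal-salt libraries 1 and 3, from 6 and 19 estimated counts. It was at 0 in the other 6 libraries. With no filter on low values, the adjusted p by limma was 0.828 for Krt5, 0.835 for Krt14 and 0.828 for Krt20. No fold is given for these 4 genes, since most libraries were at or under the limit of 3 counts.

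Krt7 over Krt8 in TPM was 2.38, 1.52, 2.34 and 1.79 under normal salt and 1.40, 1.25, 1.62 and 1.79 under high salt, which overlapped. Krt7 over Krt19 in TPM was 42.7 to 76.9 under normal salt and 16.7 to 26.2 under high salt, which did not overlap. Both ratios were singled out after their values were seen and were not tested.

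**Figure D4:**
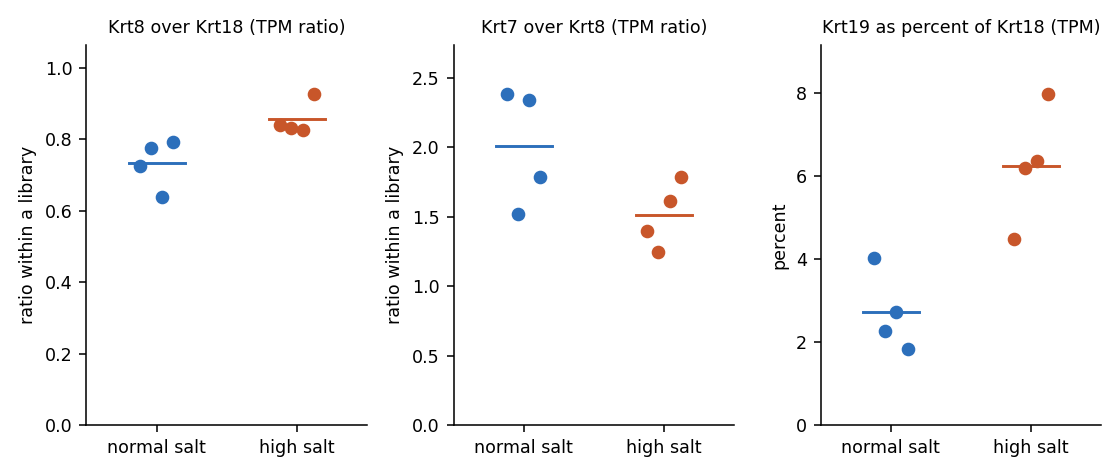
Ratios of keratin TPM within each library, 1 point per library and 4 per diet, with bars at the mean and axes from 0. Krt8 over Krt18 is 0.637 to 0.794 under normal salt and 0.826 to 0.926 under high salt, Krt7 over Krt8 overlaps between the diets, and Krt19 is 1.84% to 4.04% of Krt18 under normal salt and 4.48% to 7.98% under high salt.

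The 2 deposited tables also show which length stood behind each keratin. CPM over TPM rises with the transcript length the authors' processing used for a gene in a library. It is given here relative to Krt18, which has 1 transcript of 1437 nt in GENCODE M21. For Krt8, with 1 transcript of 1958 nt, it was 1.42 to 1.44 in all libraries, and for Krt80 2.26 to 2.33. For Krt7 it ranged from 1.58 to 1.96, with the highest value in normal-salt library 1, so that the length behind the Krt7 values differed between libraries. Krt7 has 5 annotated transcripts, of 351 to 4094 nt.

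For Krt19 the relative length was 1.13 in 5 libraries and lower in normal-salt library 1 (0.921) and high-salt libraries 2 (0.898) and 6 (0.856). Krt19 has a coding transcript of 1576 nt and noncoding ones of 823 and 546 nt. For Krt10 the relative length was only 0.389 to 0.576, although its longest transcript of 2094 nt is longer than that of Krt18. The other Krt10 transcript is 557 nt long, and the antisense gene Gm11940 overlaps Krt10 over 558 bases. Which transcript the Krt10 reads came from cannot be read from values per gene. Their low relative length means that the Krt10 TPM is high for its CPM.

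**Figure D5:**
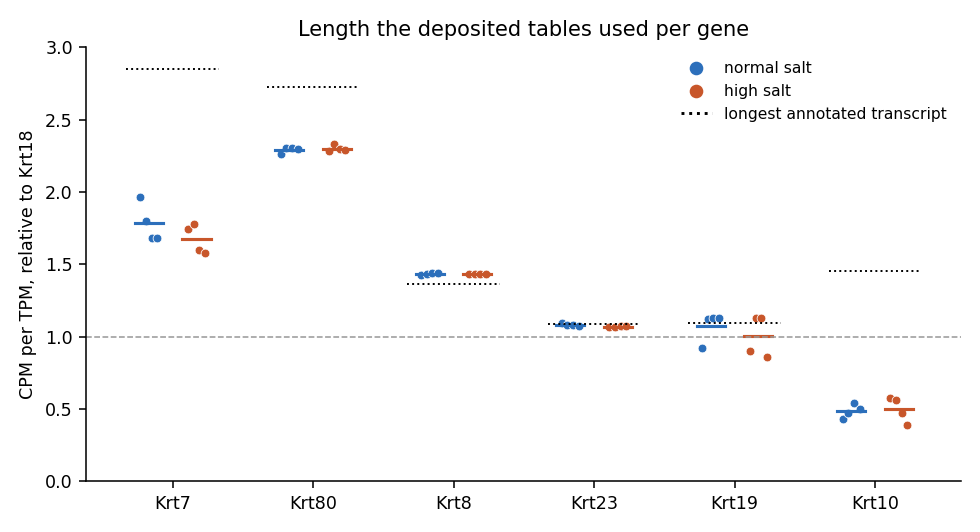
CPM per TPM of 6 keratins divided by that of Krt18 in the same library, 1 point per library, with bars at the mean of each diet. Dotted lines mark the longest GENCODE transcript of each gene over that of Krt18, and the dashed line marks Krt18 itself. Krt8 and Krt23 lie close to their dotted lines in every library, Krt7 spreads from 1.58 to 1.96, and Krt10 lies between 0.389 and 0.576.

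Reads can be shared with similar genes. Of the 50-base stretches in Krt8 transcripts, 29.7% also occur in transcripts of other genes, 514 of these 567 in the pseudogene Krt8-ps, which was at 1.23 to 2.50 CPM. The share was 12.2% for Krt5 and 13.9% for Krt14, most often with Krt6a and Krt16, and under 3% for each of the other 7. The antisense genes Gm671 at Krt7 and Gm11940 at Krt10 were at 1.43 to 3.06 and 0 to 0.246 CPM. How the reads were counted by strand is not given in the sources used here.

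By a fixed measure of likeness, the Pearson correlation of log2(CPM + 1) over the 8 libraries, the named genes most like Krt7 were Ccdc112 (0.98), Sec62 (0.97) and Pccb (0.97). Those most like Krt19 were Cks1b (0.98), Mlkl (0.96) and Dph2 (0.96). For Krt18 they were Mterf3 (0.97), Tmem175 (0.93) and Tcf7l1 (0.90), and for Krt8 they were Eps15l1, Pkn3 and Tspan5 (0.90 to 0.92). For Krt10 they were Neil1, Colca2 and Rnf167 (0.95 to 0.97), and for Krt80 Klhl12, Scrn1 and Prrc1 (0.90 to 0.92). Among the 6 keratins themselves the highest of 15 correlations was that of Krt8 with Krt18. These values describe 8 libraries that share diet and tissue and were picked as the highest of many.

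Genes that anchor keratin filaments were compared between the diets in the same fit. The counts of these and the following lists stand beside the shares of all genes, which were 0.0821% called and 10.3% at an unadjusted p under 0.05 (5.95% higher and 4.37% lower). Of 13 desmosome genes 8 were tested, and 0 passed by limma in either direction (0 higher and 1 lower at an unadjusted p under 0.05), with 2 higher and 6 lower means and a median log2 fold change of -0.08. Dsp, the desmoplakin that ties keratins to desmosomes, was at 725 ± 196 CPM under normal and 660 ± 104 CPM under high salt (limma adjusted p = 0.907). Jup, the plaque protein plakoglobin, was at 352 ± 18.2 and 317 ± 15.5 CPM (limma adjusted p = 0.571), with all 4 high-salt libraries below all 4 normal-salt ones. Pkp2, the plaque protein plakophilin 2 and the list's member at an unadjusted p under 0.05, was named after its values were seen. It was at 71.8 ± 8.05 and 60.9 ± 1.33 CPM (limma adjusted p = 0.431), also without overlap. Of all tested genes 2.75% were lower without overlap. The 5 members below the level for testing included Dsg1a, Dsg3, Dsc1 and Dsc3, desmosomal cadherins of layered epithelia, and Pkp1.

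Of 11 linker and hemidesmosome genes 10 were tested and 0 passed by limma (1 higher at an unadjusted p under 0.05), with a median of 0.10. The most abundant were the linkers Dst, at 511 ± 179 and 545 ± 48.4 CPM, and Macf1, where the means were 420 ± 141 and 665 ± 50.8 CPM. Macf1 was higher under high salt without overlap, as were 3.66% of all tested genes, and it had a log2 fold change of 0.74 (limma adjusted p = 0.293). Of 9 other filament and lamina genes 7 were tested and 0 passed (1 higher at an unadjusted p under 0.05), with a median of 0.32. Lmna, the lamin of the nuclear envelope, was at 88.9 ± 13.5 and 101 ± 6.04 CPM. Vim, the filament of mesenchymal cells, was at 108, 26.1, 17.3 and 14.8 CPM under normal salt and at 30.4, 66.0, 20.9 and 59.1 CPM under high salt. The normal-salt mean of 41.6 CPM rests on library 1, and the other 3 libraries of that diet were at or below 26.1 CPM.

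Of 17 epithelial transcription factors 16 were tested and 0 passed by limma (3 higher and 1 lower at an unadjusted p under 0.05), with a median of 0.09. Of all genes 0.0821% were called, and 5.95% were higher and 4.37% lower at an unadjusted p under 0.05. Tfcp2l1, a regulator of collecting duct cells, was at 2849 ± 522 and 2769 ± 230 CPM, and Ehf at 409 ± 68.1 and 445 ± 40.7 CPM. Of 14 genes of tubule injury 12 were tested and 0 passed (3 higher and 2 lower at an unadjusted p under 0.05), with a median of 0.33. Havcr1, a marker of injured proximal tubule, was at 0 in all 8 libraries.

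The tissue label was checked against markers. All 12 principal cell and all 13 intercalated cell markers reached the level for testing, and 1, Scnn1a of the sodium channel, fell (log2 fold change -1.33, limma adjusted p = 0.026). It was not called without normal-salt library 3 or 6, without high-salt library 2, 3 or 4, or without the filter on low values. At an unadjusted p under 0.05, 3 principal cell markers were higher and 2 lower, and 5 intercalated cell markers were lower, against 5.95% of all genes higher and 4.37% lower. Summed principal cell markers were 20543 to 25977 CPM under normal salt and 29205 to 34152 CPM under high salt, led by Aqp2 and Hsd11b2. Aqp2 was at 9979 ± 2120 and 15689 ± 1618 CPM without overlap, as 3.66% of all tested genes were higher without overlap. Hsd11b2 was at 4067 ± 307 and 3947 ± 204 CPM. Means were higher in 7 principal cell markers and lower in 5, with a median log2 fold change of 0.05, so the sum follows its most abundant member. Summed intercalated cell markers were 12430 to 12966 and 10315 to 11997 CPM, led by Aqp6 and Slc4a1. These 2 overlapped between the diets, with means of 2803 and 2988 CPM for Aqp6 and of 2709 and 2722 CPM for Slc4a1. Means were higher in 2 intercalated cell markers and lower in 11, with a median log2 fold change of -0.25. The principal and intercalated cell sums both differed without overlap. How often sums of other genes do so was not tested, and neither was the part of both sums in the keratin values.

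Markers of layered epithelia were low in the same libraries. Of 12 urothelium markers 8 were below the level for testing, among them the uroplakins Upk1b, Upk2 and Upk3a, and none was at 0 in all libraries. Of the 4 tested, 0 passed by limma and 1 was higher at an unadjusted p under 0.05, against 5.95% of all genes. That was the uroplakin Upk1a, named after its values were seen, at 3.21 ± 0.907 and 5.54 ± 0.885 CPM (limma adjusted p = 0.216). Upk1a was higher under high salt without overlap, as were 3.66% of all tested genes. The urothelium markers summed to 35.9 to 49.0 CPM under normal salt and 38.6 to 48.1 CPM under high salt, led by Upk3b (13.7 ± 1.46 and 12.1 ± 0.759 CPM) and Fmo5. Of 19 markers of stratified epithelium 18 were below the level, and Krt4, Sprr1b and Dsc3 were at 0 in all 8 libraries. The exception was Trp63, a transcription factor of basal cells, at 9.30 ± 2.22 and 12.1 ± 1.503 CPM. Its level stood beside Krt5, Krt14 and Krt15 at or near 0.

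Markers of neighbouring tubule segments were also present. Sums of thick ascending limb markers were 1068 to 2653 CPM under normal salt and 568 to 3303 CPM under high salt, the highest in high-salt library 6. They were led by Umod, at 355 to 1368 and 35.7 to 1695 CPM, and Kcnj16, at 397 to 546 and 467 to 502 CPM. Kcnj16 made up most of the sum in high-salt libraries 2 (467 CPM) and 3 (479 CPM). Umod was at 46.5 and 35.7 CPM there. All 10 thick limb markers were tested, 9 had lower means and 0 passed by limma, also at an unadjusted p under 0.05. Sums of inner medullary duct markers were 2586 to 2907 and 3037 to 4073 CPM, without overlap, and 0 of 7 passed (3 higher at an unadjusted p under 0.05, against 5.95% of all genes). Means were higher in 5 and lower in 2. Aqp4 and Fxyd4, which are also on the principal cell list, led this sum, and each overlapped between the diets. Slc14a2, named after its values were seen, also overlapped, at 0.123 to 55.8 and 0.266 to 42.2 CPM. Sums for mesothelium, a list that holds Krt19 itself, were 18.3 to 24.3 and 22.8 to 30.1 CPM, with Msln, Wt1 and Lrrn4 below the level for testing. Proximal tubule markers summed to 3.07 to 98.4 and 6.84 to 135 CPM, endothelial markers to 194 to 299.7 and 186 to 290.5 CPM, and macrophage markers to 36.0 to 79.4 and 29.8 to 52.4 CPM, and none of these was called. At an unadjusted p under 0.05 the macrophage list had 1 higher member, Ptprc, the leukocyte surface protein CD45, at 9.42 ± 1.06 and 14.1 ± 2.18 CPM without overlap (limma adjusted p = 0.184). Of all tested genes 3.66% were higher without overlap. The part of any of these in the keratin values was not tested.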

How the data were processed

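The submitters' processing notes name Trimmomatic, FastQC and the genome build mm10. The library kit kept strand, per the labels' protocols. Which aligner, counting program and annotation were used is not given in the sources used here. For 8 libraries the authors deposited CPM on a log2 scale, with a shared floor of -5.29, and TPM rounded to 3 decimals. Here 2 was raised to each log2 value, the floor was subtracted, and libraries were scaled to a common total. The steps gave estimated counts, multiples of 0.01, of which 83.8% to 85.0% were whole (tolerance 0.005), with totals of 64.8 to 94.1 M per library. A count model was therefore not used.

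Column names gave the diet but not which titled sample they were, so a library carries its diet and the number of its column. Genes reaching 1 CPM in 4 or more libraries were compared with limma 3.58.1 (R 4.3.3) on log2(CPM + 1), with a mean-variance trend, two-sided, and Benjamini-Hochberg adjustment over all genes. Errors are standard deviations over the 4 mice of a diet. The fit was tested on simulated data. Genes were named by these rules: all 10 keratins; from each list the called members and the 2 most abundant; for each tested keratin the 3 genes most like it, without predicted genes and pseudogenes. Upk1b, Upk2, Upk3a, Havcr1, Pkp1, the cadherins and others below the level for testing or at 0 were named after their values were seen. The keratins and lists were chosen with earlier results of these data known. Protein sequences were not used here. Not every gene that these rules name is reported here.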

Additional observations from a re-analysis of the deposited data

Results flagged for a closer look

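For Krt14, 1 library of a diet stood apart from the other 3 by Dixon's criterion for 4 values. Chance meets this criterion in about 1 of 20 sets, but that rate does not apply where the other libraries are at or near 0, as here. CPM and TPM describe the same libraries and are not separate signs. In CPM, normal-salt library 1 had 0.0617 and high-salt library 4 had 0.208. In TPM, the same libraries had 0.0850 and 0.199. The values come from 4 and 15.35 estimated counts, with the other normal-salt libraries at 0.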

How the results depend on the processing

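In all 17 alternatives (pseudocount, filter, scaling, TPM, voom, single libraries left out, replicate block, and the same libraries without it) limma called 0 of the keratins tested. Krt7 kept a negative log2 fold change (-0.52 to -0.28), Krt19 a positive one (0.64 to 1.02), and Krt10 (-0.34 to -0.0487) and Krt18 (-0.25 to -0.15) negative ones. With single libraries left out, Krt8 ranged from -0.0858 to 0.10 (-0.00247 without high-salt library 3) and Krt80 from -0.15 to 0.0294. The order of the 6 keratins changed by CPM, where 4 kept their place and Krt8 stood above Krt18, and 4 to 6 kept it with single libraries left out.

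The 11 calls over all genes became 0 without a filter and 0 to 50 with single libraries left out: 50 when normal-salt library 1 was dropped, 5 when high-salt 2 was, 1 for normal-salt 6 or high-salt 3, and 0 for normal-salt 3 or high-salt 4. The cause was not tested. Calls among the companion lists (1, Scnn1a) became 0 without a filter and 0 to 2 with single libraries left out.

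Column numbers 2, 3 and 6 occur in both diets. The correlation of same-numbered libraries' deviations was 0.208, 0.287 and 0.00201, against -0.275 to 0.296 between libraries of different numbers. So few values cannot decide whether the numbers mark pairs, and the main fit did not take them as pairs. With a replicate block on these 6 libraries 37 genes were called, 3 of them in the companion lists, against 23 and 2 without the block, a comparison chosen after seeing the data. The planned quasi-likelihood count test was not run, because the recovered counts were not whole. At the levels seen, Krt5, Krt14, Krt15 and Krt20 rested on too few counts for the diets to be compared. How large a difference these depths could show was not tested.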

Other observations

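Krt23, a type I keratin outside the 10, was the next most abundant keratin symbol after Krt80 by CPM. It was at 38.6, 52.4, 37.1 and 38.5 CPM under normal salt and at 40.6, 44.6, 50.3 and 42.9 CPM under high salt, which overlapped. Means were 41.6 ± 7.18 and 44.6 ± 4.14 CPM (log2 fold change 0.11, limma adjusted p = 0.818). The pseudogene Krt8-ps, on chromosome 7 from 23357125 to 23358069, was at 1.47 ± 0.283 and 2.06 ± 0.390 CPM (log2 fold change 0.30, limma adjusted p = 0.609).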
